A study of Sus scrofa with 12 samples.

Results

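The matrix structural genes measured here were fibronectin (FN1), elastin (ELN), the collagen chains, the laminin chains, the fibrillins, fibulins, thrombospondins, EMILINs and matrilins, and DCN, LUM, BGN, SPARC, POSTN, VCAN, TNC, NID1 and NID2. Members were found by gene symbol in the mRNA count table, and a symbol with more than 1 entry was read from its most-read entry. This gave 68 genes of 13363 distinct symbols, which were spread over 29658 table entries. The RNA came from mesenchymal stem cells (MSCs) of 3 female domestic pigs aged 3 months, and from the extracellular vesicles (EVs) these cells released. The cells were primary cultures from abdominal fat, grown with platelet lysate and used at passage 3, and the vesicles were collected from the supernatants by ultracentrifugation. No disease, gene change or test drug is described, and the pigs were anaesthetized and given analgesics for the fat biopsy. Each pig gave 1 MSC and 1 EV library, so pig 1 is replicate 1 of both groups, and so on. The question was which mRNAs were more or less abundant in EVs than in their parent cells.

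The extracellular matrix is the protein scaffold outside the cell. Collagen chains fold as trimers, and the fibrillar types build the fibres that carry tension, while laminins, type IV collagen and nidogens form the basement membrane on which cells sit. Fibronectin links this scaffold to cell-surface integrins, elastic fibres are elastin on a fibrillin framework, and mesenchymal cells of adipose tissue are known producers of all of these.

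Library totals ran from 10429085 to 12276855 reads on genes. The 18S ribosomal RNA entry had 401248, 110431 and 149388 of these reads in MSCs of pigs 1, 2 and 3 and 419248, 346299 and 294441 in EVs. As a share of the library it was higher in EVs of 3 of 3 pigs, most of all in pig 2 (2.85% in its EVs, from 110431 of 12276855 reads in its MSCs), and its part in the differences below was not tested. The MSC markers read were NT5E, THY1, ENG, CD44, PDGFRB and PDGFRA. Of these 6 markers, THY1 was listed at 0 reads in all 6 libraries, and 0 of the 5 that could be tested differed between EVs and MSCs with a fold change over 2 at an unadjusted p under 0.05. Summed levels of the MSC markers were 1404 to 2466 CPM (reads scaled to library size, here after edgeR's TMM scaling) in MSCs against 1827 to 2402 in EVs. Those of endothelial markers were 10.2 to 17.9 CPM in MSCs against 1.87 to 7.18 in EVs, where VWF was at 0 throughout. The smooth muscle and pericyte markers summed to 70.1 to 143 CPM in MSCs against 25.0 to 111 in EVs, with DES and RGS5 at 0. Leukocyte markers summed to 48.7 to 51.2 CPM in MSCs against 45.3 to 64.0 in EVs with AIF1, CD163 and LYZ at 0, and adipocyte markers to 1.34 to 18.1 and 13.6 to 25.2 with PLIN1 at 0. Epithelial and mesothelial markers stayed at or below 5.67 CPM with KRT8 at 0, and platelet markers at or below 3.45 with PPBP and ITGA2B at 0. CDH5, EMCN, FABP4, KRT19, MSLN, UPK3B and PF4 matched no entry by name. A marker at 0 in all libraries may be unmeasured, as for the matrix genes below. Low sums therefore do not show that a cell type was absent.

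Not every matrix gene could be read. Of the 68 genes, 52 passed edgeR's filter on low counts, 9 had too few reads and 7 had 0 reads in every library. COL1A2 and COL3A1, chains of the main collagens of connective tissue, decorin (DCN) and COL10A1 were each listed as a pair of entries over the same span, and all of these entries held 0 reads. Biglycan (BGN), COL4A5 and COL4A6 are listed on a chromosome X written without the chr prefix of the other entries, and all 1170 entries written so on X, Y and the mitochondrial sequence held 0 reads. These 7 genes are therefore unmeasured, and nothing is read from them about the cells or the vesicles. The 9 with few reads were COL2A1, COL6A5, COL9A1, FBN3, EMILIN3, LAMB3, MATN1, MATN3 and THBS1. A further 17 symbols of the same families, among them COL1A1, COL4A1, COL18A1 and LAMA5, matched no entry by name, and 13518 entries carried no symbol, so these genes were not analysed here.

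FN1 had the highest mean level per kilobase of the 68 entries used, in MSCs and in EVs. It encodes the adhesive glycoprotein that cells assemble into fibrils, and its entry spans chromosome 15 from 130357873 to 130430503 (pig build susScr3). In MSCs of pigs 1, 2 and 3 it had 373443, 542230 and 344929 reads, and in EVs 406583, 1017065 and 743455. The EV libraries of pigs 2 and 3 stood above all others, whereas EVs of pig 1 fell within the MSC range, so the groups overlapped. The span lies within entries of OCA2 on the same strand and ATIC on the opposite strand, which held 1 and 332 reads in all. By read number FN1 ranked 3, 2 and 2 among all entries in MSCs against 3, 1 and 1 in EVs. It took 3.55% ± 0.757 (SD, n = 3) of gene reads in MSCs and 6.22% ± 2.24 (n = 3) in EVs, with a maximum of 8.37% in EVs of pig 2 (95% Wilson interval 8.35% to 8.39%, counting error only). The log2 difference was 0.78 (SE 0.57, adjusted p = 0.488, quasi-likelihood test of edgeR, Benjamini-Hochberg adjusted), higher in EVs of 3 of 3 pigs. That difference was 0.27 once a trend of fold change with gene length was removed.

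**Figure D1:**
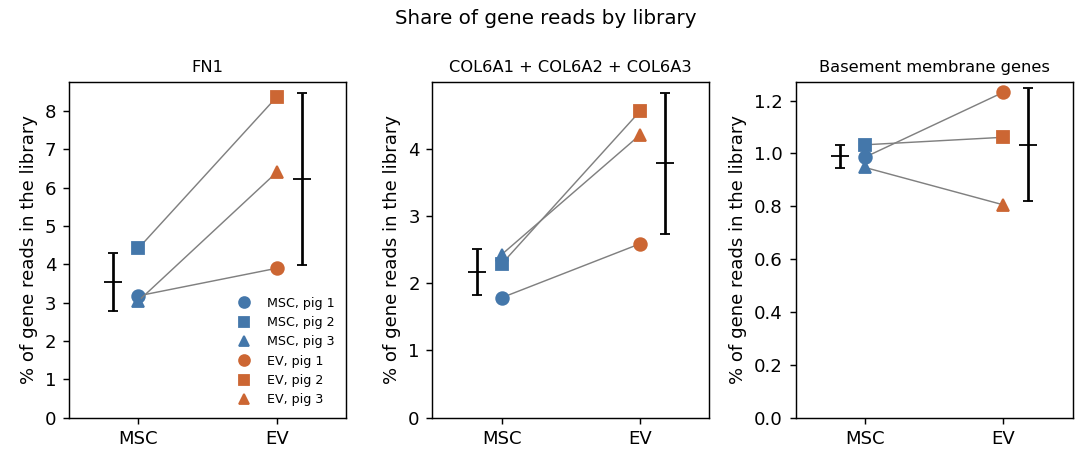
Percentage of all gene reads in each library for FN1, for COL6A1, COL6A2 and COL6A3 together, and for the basement membrane genes, with lines joining MSCs and EVs of the same pig and bars for the mean ± SD of 3 libraries. FN1 was highest in EVs of pig 2 at 8.37%, the type VI collagen genes were above their MSC value in EVs of all 3 pigs, and the basement membrane genes stayed near 1% (0.988% in MSCs against 1.03% in EVs on average).

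All 68 genes together took 9.78% ± 0.609 of gene reads in MSCs against 13.9% ± 3.04 in EVs (n = 3 each). By pig the share was 9.08%, 10.2% and 10.1% in MSCs against 10.4%, 15.5% and 15.7% in EVs. EVs of pigs 2 and 3 were therefore well above the MSC range and EVs of pig 1 only just above it. Without FN1 the shares were 6.23% ± 0.724 and 7.63% ± 1.47, and for collagens alone 4.16% ± 0.393 and 5.69% ± 0.964. Between 11 and 14 of the matrix genes were among the 50 entries with the most reads in every library.

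Levels per kilobase were taken as RPKM (reads per kilobase of gene length, scaled to library size after TMM). By the mean of all 6 libraries the matrix genes after FN1 were COL6A1, COL6A2, SPARC, COL12A1, COL6A3, COL4A2, THBS2, COL16A1, COL8A1, LAMB1, COL5A1, COL14A1 and NID1, and the order differed within each group. COL6A3 in particular was at 548 ± 135 RPKM in MSCs (SD, n = 3), below COL4A2 (943 ± 228), THBS2 (794 ± 66.0) and COL16A1 (635 ± 48.1), and at 1689 ± 625 in EVs, above COL12A1 (1174 ± 456). FN1 was at 4505 ± 1617 RPKM (SD, n = 3) in MSCs against 7735 ± 3059 in EVs. COL6A1 was at 4002 ± 1226 and 4794 ± 1538, COL6A2 at 3512 ± 1532 and 4795 ± 1896, and SPARC at 4127 ± 1629 and 3861 ± 3255. A shorter SPARC entry on chromosome 16 was at 7634 ± 2532 in MSCs and 7210 ± 6252 in EVs, so the first place of FN1 in MSCs depended on which SPARC entry was read. Within MSCs these top 4 genes had overlapping ranges, and the order among them changed from pig to pig. COL12A1, at 1167 ± 233 RPKM in MSCs, was below all 4 of them in each MSC library.

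**Figure D2:**
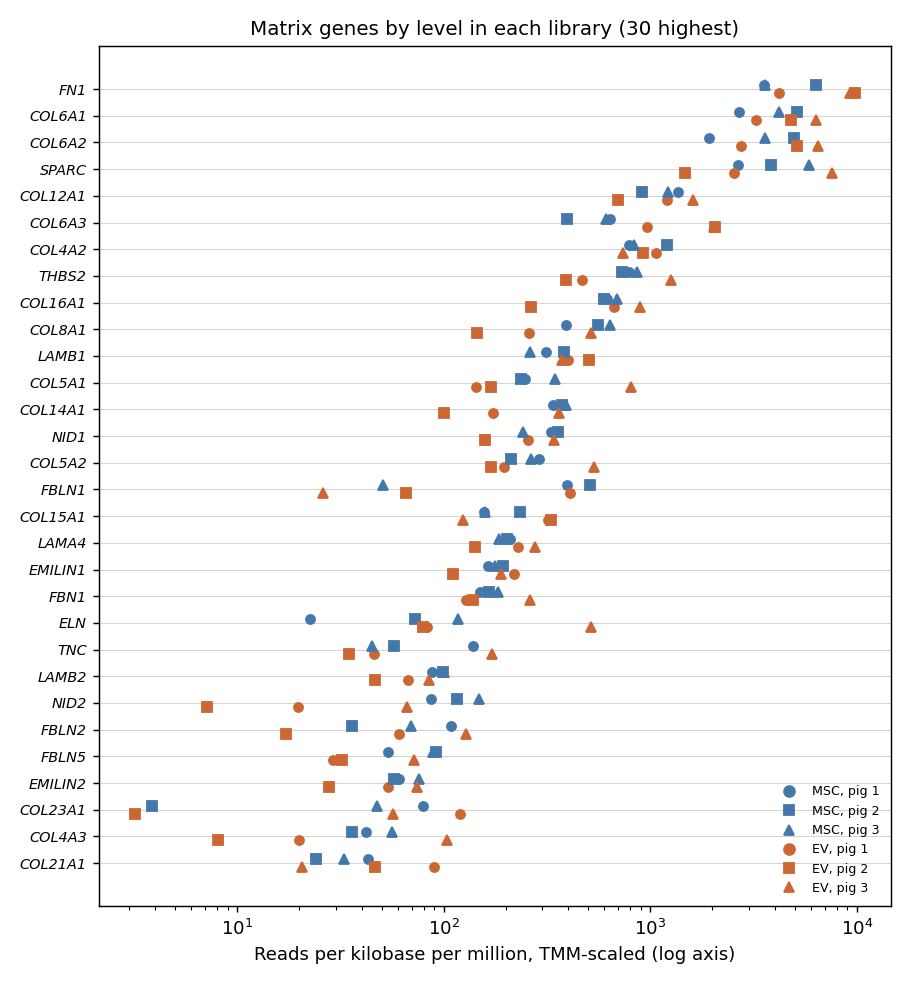
Level of the 30 most abundant matrix genes in each library, in TMM-scaled RPKM on a log axis, MSC libraries in blue and EV libraries in orange with 1 symbol per pig. FN1 lay between 3551 and 6372 in MSCs and reached 9755 in EVs, COL6A3 in all 3 EV libraries lay above its MSC values, and NID2 in all 3 lay below.

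The comparison of EVs with MSCs over all 12392 entries tested gave few matrix genes. With a fold change over 2 and an unadjusted p under 0.05, 4 of the 52 were higher in EVs (COL6A3, MATN2, COL5A3 and THBS3, 7.69%, against 5.55% of all entries) and 1 was lower (NID2, 1.92%, against 3.57%). After Benjamini-Hochberg adjustment of edgeR's quasi-likelihood test, 0 matrix genes and 0.0% of all entries passed in either direction, with 6 matrix genes and 1978 entries at an unadjusted p under 0.05, and the lowest adjusted p among the matrix genes was 0.219. DESeq2, also on group only, gave 8 of 61 higher (13.1%, against 4.64% of the entries it tested) and 3 lower (4.92%, against 3.16%) without adjustment. After adjustment it gave 3 higher (COL6A3, MATN2 and COL5A3, 5.66%, against 1.86% of all entries with an adjusted p) and 0 lower (against 1.42%). With the pig as a block, edgeR called MATN2 and COL5A3 higher after adjustment (2 of 52, against 0.492% of all entries) and 0 lower (against 0.605%). Unadjusted, the blocked fit gave 11 higher (21.2%, against 8.01%), which added ELN, COL27A1, LAMC3, FBLN7, COL13A1, THBS4 and POSTN, and 5 lower (9.62%, against 5.17%), which added MATN4, FBN2, COL17A1 and FBLN1. The log2 differences ran from -2.04 for FBN2 to 3.89 for MATN2 with a median of 0.11, beside -0.02 over all entries, and 30 were above 0 and 22 below. All 3 EV libraries lay above all 3 MSC libraries for COL6A3, MATN2, COL27A1, LAMC1 and COL5A3 (5 genes, against 14.3% of all entries) and below them for NID2 and LAMB2 (2 genes, against 13.6%). A difference above 0 in all 3 pigs was seen for 16 genes (against 22.6% of all entries) and one below 0 in all 3 for 9 (against 24.2%). The counts of genes with no overlap lay below the background, and those of edgeR on group only lay near it. The unadjusted ones of DESeq2 and of edgeR blocked by pig lay above it for genes higher in EVs. For genes lower in EVs they were 3 of 61 and 5 of 52, counts too small to be read as above it. A bulk library cannot separate fewer vesicles or cells that carry a transcript from less of it in each.

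**Figure D3:**
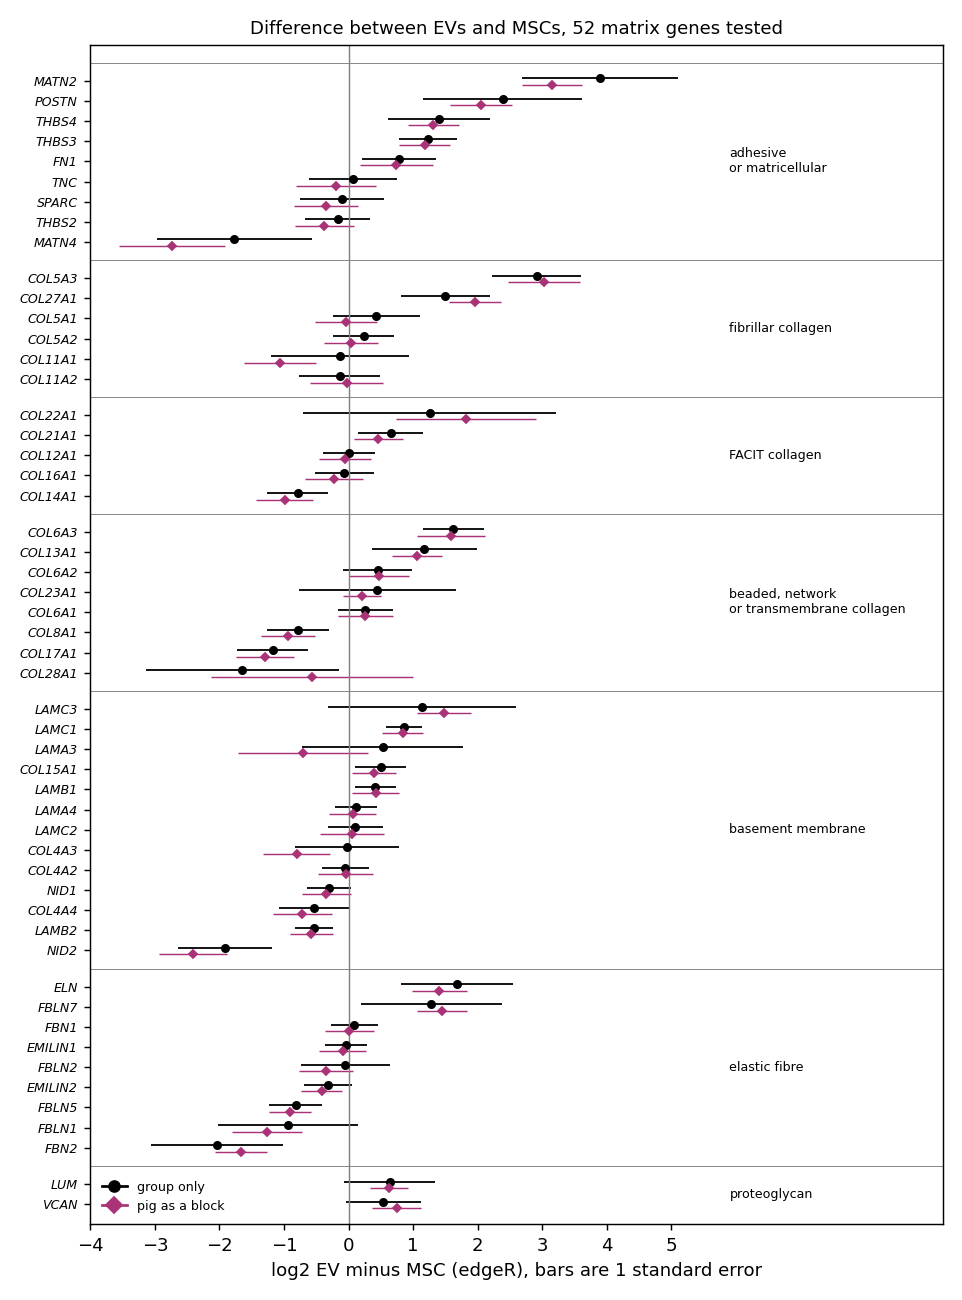
Log2 difference between EVs and MSCs for the 52 matrix genes tested, grouped by role, from edgeR with group only (black circles) and with the pig as a block (purple diamonds). Bars are 1 standard error, derived from the test statistic. MATN2 at 3.89 and COL5A3 at 2.91 lie farthest to the right, and FBN2 at -2.04 and NID2 at -1.91 farthest to the left.

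The adhesive and matricellular genes, whose products tune contact between cells and matrix, had 9 of 12 members tested, with a median log2 difference of 0.78, and 6 were above 0. MATN2 encodes a matrilin, a filament-forming adaptor, on chromosome 4 (41734184 to 41746860). It had 24, 83 and 24 reads in MSCs of pigs 1, 2 and 3 and 178, 1943 and 79 in EVs. EVs of pig 2 were far above the rest, and on the TMM-scaled CPM scale the lowest EV library (7.99) was just above the highest MSC library (7.94). MATN2 was 14.9-fold higher in EVs (log2 3.89, SE 1.21, adjusted p = 0.247 by edgeR, and, blocked by pig, 3.15 with adjusted p = 0.0213). Without EVs of pig 2 the log2 difference was 1.53 and the unadjusted call was lost. The entry lies wholly within that of POP1 on the same strand, which held 411 reads in all libraries together and a log2 difference of -0.43 (SE 0.54), and how reads were assigned between these entries was not tested.

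THBS3, a thrombospondin of the pentameric kind on chromosome 4 (103395530 to 103406728), had 966, 482 and 1204 reads in MSCs against 3373, 1753 and 1005 in EVs. EVs of pigs 1 and 2 exceeded all MSC libraries, and EVs of pig 3 did not. Its difference was 2.35-fold (log2 1.23, SE 0.45, unadjusted p = 0.028 and adjusted p = 0.275 by edgeR), and without EVs of pig 1 it was 0.68 on the log2 scale and no longer called. The unadjusted call was also lost without MSCs of pig 1 (1.23) or pig 2 (0.98). Its relative THBS2 was near its MSC level, with 57855, 43470 and 57872 reads in MSCs against 31502, 28497 and 70922 in EVs (log2 -0.17, SE 0.50, adjusted p = 0.873 by edgeR), and THBS1, the best known member of the family, had 1 read in each group under a same-named entry with 0 reads that covered 99.9% of its span.

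SPARC encodes a collagen-binding glycoprotein of remodelling tissue. It had 62312, 72267 and 125454 reads in MSCs against 54523, 34013 and 135267 in EVs. MSCs and EVs of pig 3 were the highest of their groups, and the groups overlapped (log2 -0.10, SE 0.65, adjusted p = 0.949 by edgeR). This entry is on an unplaced scaffold, and the other SPARC entry had a log2 difference of -0.08. Periostin (POSTN), a matricellular protein made by activated fibroblasts, had only 8, 6 and 50 reads in MSCs against 33, 16 and 244 in EVs. Its log2 difference of 2.39 (SE 1.24, adjusted p = 0.362 by edgeR) became 0.15 without EVs of pig 3 and was 2.05 blocked by pig (1.66 without both libraries of pig 3), and a same-named entry with 0 reads covered 94.6% of its span. TNC, an anti-adhesive glycoprotein, was at 0.07 (SE 0.68). MATN4 was lower in EVs of all 3 pigs, with 142, 167 and 388 reads in MSCs against 27, 1 and 152 in EVs, but the groups overlapped and the log2 difference of -1.77 (SE 1.20) had an adjusted p of 0.459 by edgeR. Leaving out 1 library put it between -4.09 (without EVs of pig 3) and -1.16 (without EVs of pig 2).

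Among the fibrillar collagens 6 of 9 genes were tested. COL5A3, a minor chain of the type V collagen that regulates fibril diameter, lies on chromosome 2 (69156853 to 69197838). MSCs had 4, 12 and 3 reads and EVs 31, 83 and 37. Each EV library was above each MSC library, although all 6 had under 100 reads. COL5A3 was 7.53-fold higher in EVs (log2 2.91, SE 0.69, adjusted p = 0.219 by edgeR), and blocked by pig it was 3.03 on the log2 scale with an adjusted p of 0.0404. It kept its unadjusted call when any library was left out, at 2.48 to 3.87, and another COL5A3 entry with 0 reads covered 90.3% of its span. What this does to its read number was not tested, and its level is not set against that of other chains. On log2(RPKM + 1) of the authors' RPKM, a scale that understates the change of an entry with few reads, the difference was 0.24.

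COL5A1 and COL5A2 encode the chains that make up most of type V collagen. COL5A1 had 23252, 17971 and 29743 reads in MSCs against 12358, 15840 and 57934 in EVs. COL5A2 had 19401, 11572 and 16180 in MSCs against 12099, 11357 and 27468 in EVs. Both were lower than in MSCs in EVs of pigs 1 and 2 and higher in EVs of pig 3, with log2 differences of 0.43 (SE 0.67) and 0.24 (SE 0.48). The ratio of COL5A2 to COL5A1 per kilobase differed by 0.06 on the log2 scale (exact permutation p = 0.9). COL27A1, a fibrillar collagen of cartilage, had 168, 104 and 744 reads in MSCs against 765, 849 and 1110 in EVs. All 3 EV libraries were above all 3 MSC libraries on the CPM scale, EVs of pig 1 (64.6) only just above MSCs of pig 3 (63.1). Its log2 difference was 1.50 (SE 0.69, adjusted p = 0.330 by edgeR) and 1.96 blocked by pig (adjusted p = 0.0521). It ran from 1.09 without MSCs of pig 2 to 2.81 without MSCs of pig 3. The COL27A1 entry overlaps 7 others. Among them, AKNA on the opposite strand covers 40.2% of its span and held 173 reads. An entry without a symbol on the same strand covers 15.3% and held 2840 reads. How reads were assigned between these entries was not tested. COL11A1 and COL11A2, the chains of type XI collagen that share fibrils with types II and V, were at -0.13 and -0.14.

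The beaded-filament, network and transmembrane collagens had 8 of 10 genes tested, and the chains of type VI collagen stood out by abundance. Type VI collagen is a pericellular microfibril whose main form joins the products of COL6A1, COL6A2 and COL6A3. COL6A3 (chromosome 15, 151451225 to 151542446, also within the OCA2 entry that held 1 read) had 81330, 40342 and 70332 reads in MSCs against 112558, 259074 and 197743 in EVs. The EV libraries all exceeded the MSC libraries, and EVs of pig 2 were highest where MSCs of pig 2 were lowest. COL6A3 was 3.08-fold higher in EVs (log2 1.63, SE 0.47, unadjusted p = 0.00936 and adjusted p = 0.237 by edgeR, 0.155 blocked by pig). Leaving out any library kept it between 1.44 and 1.90 with the unadjusted call. With the length trend removed it was 1.17, and 1.11 with the pig as a block as well, where the unadjusted call was lost. The blocked fit without pig 1 (2.07) or without pig 3 (1.48) also lost that call.

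COL6A1 and COL6A2 had smaller differences than COL6A3. COL6A1, on an unplaced scaffold, had 50809, 78205 and 72148 reads in MSCs against 56175, 90034 and 91292 in EVs (log2 0.26, SE 0.43). COL6A2, on chromosome 13 (218600762 to 218615843), had 77530, 162106 and 132477 in MSCs against 101138, 205029 and 199412 in EVs (log2 0.45, SE 0.53). Neither passed, with adjusted p-values of 0.759 and 0.663 by edgeR, and in both the MSC and EV ranges overlapped. Because a ratio of chains within a library does not depend on scaling, COL6A3 was also set against COL6A1 per kilobase. Such a ratio reuses the COL6A3 reads and does not cancel a trend with gene length. The entries are 9817 (COL6A3) and 1461 (COL6A1) bases long. The ratio was 0.238, 0.0768 and 0.145 in MSCs against 0.298, 0.428 and 0.322 in EVs, which puts all EV libraries above all MSC libraries. It was 2.49-fold higher in EVs (exact two-sided permutation test, p = 0.1, the smallest that 3 against 3 allows, and 0.375 adjusted over 5 ratios), higher in 3 of 3 pigs. COL6A2 to COL6A1 differed by 0.21 on the log2 scale (exact permutation p = 0.3) and was also higher in EVs of 3 of 3 pigs. The permutations compare the groups and do not use the pairing by pig.

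Of the remaining genes of this class, COL8A1, a short-chain collagen of vessel walls, was lower in EVs of all 3 pigs. It had 11505, 13165 and 17019 reads in MSCs against 6951, 4211 and 11568 in EVs, but the groups overlapped on the CPM scale (log2 -0.79, SE 0.48, adjusted p = 0.414 by edgeR). COL13A1 and COL17A1, transmembrane collagens of cell adhesion sites, had log2 differences of 1.17 (SE 0.81) and -1.17 (SE 0.55), each in the same direction in 3 of 3 pigs. Leaving out 1 library put COL13A1 between 0.22 (without EVs of pig 3) and 2.09 (without MSCs of pig 3). Neither passed after adjustment, with 0.466 and 0.333 by edgeR, and both had 235 reads or fewer in every library.

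The FACIT collagens sit on the surface of fibrils and do not form fibrils themselves. Of 6 genes, 5 were tested, 0 passed and the median log2 difference was 0.01. COL12A1 had 55629, 29997 and 45514 reads in MSCs against 45279, 28288 and 50196 in EVs, with overlapping groups and a log2 difference of 0.01 (SE 0.41). COL16A1 had 39839, 31309 and 40685 in MSCs against 39545, 16942 and 44093 in EVs (log2 -0.06, SE 0.46). EVs of pig 2 were the lowest library for both. COL14A1, which binds fibrils near their surface, lay lower in EVs of all 3 pigs with overlapping groups, at 27874, 25139 and 29408 reads in MSCs against 13186, 8195 and 23014 in EVs. Its log2 difference of -0.79 (SE 0.48) had an adjusted p of 0.412 by edgeR.

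**Figure D4:**
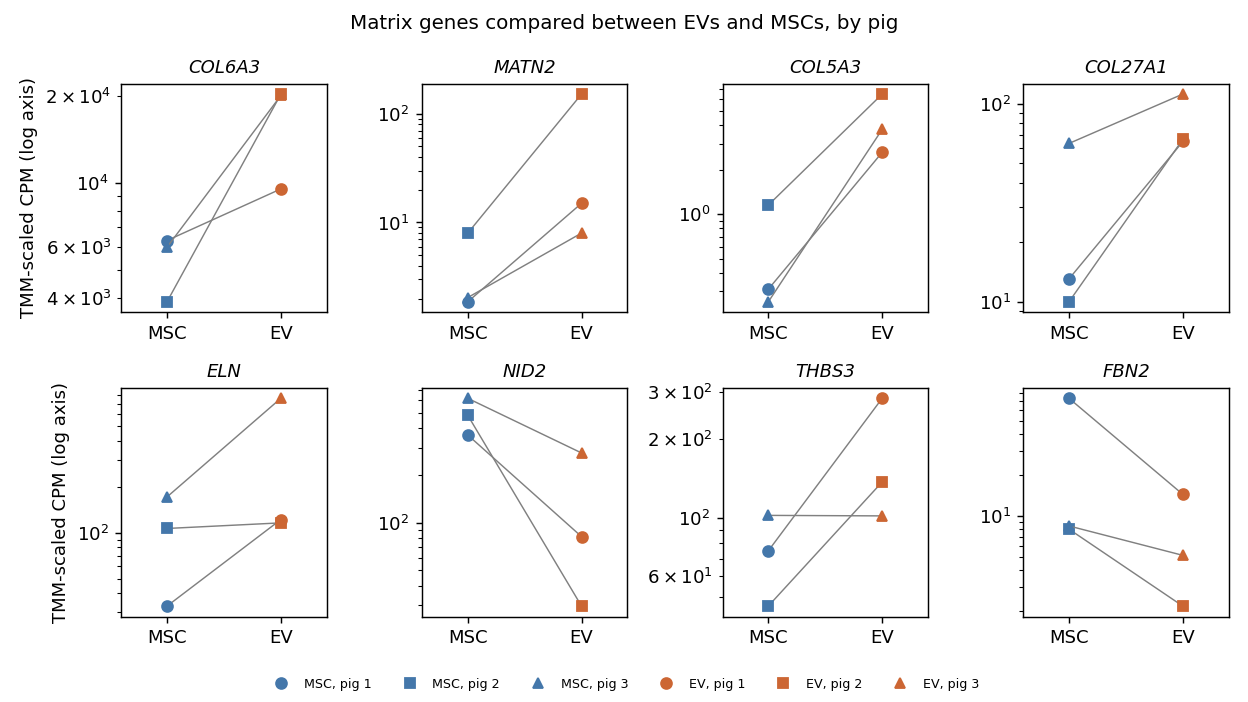
TMM-scaled CPM on log axes for 8 matrix genes, with lines joining MSCs and EVs of the same pig. COL6A3, MATN2, COL5A3 and COL27A1 were higher in EVs of all 3 pigs without overlap between groups, NID2 was lower without overlap, and ELN, THBS3 and FBN2 overlapped.

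Basement membrane genes went both ways. Of 16 genes, 13 were tested, the median log2 difference was 0.10, and 7 were above 0 and 6 below. Nidogen-2 (NID2), which ties laminin to type IV collagen, was the 1 gene of this class past fold 2 at an unadjusted p under 0.05 on group only. Its entry on chromosome 1 (201971913 to 202044999) had 4670, 5048 and 7277 reads in MSCs against 968, 379 and 2742 in EVs. Each EV library was below each MSC library, and pig 3 was the highest of both groups. NID2 was 3.76-fold lower in EVs (log2 -1.91, SE 0.73, unadjusted p = 0.032 and adjusted p = 0.280 by edgeR, and, blocked by pig, -2.41 with adjusted p = 0.0619). The unadjusted call was lost without MSCs of pig 2 (-1.92), MSCs of pig 3 (-1.71) or EVs of pig 1 (-1.67), and without EVs of pig 3 the difference was -3.13.

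Nidogen-1 (NID1), the other linker, had 5429, 4774 and 3635 reads in MSCs against 3847, 2592 and 4320 in EVs, with overlapping groups (log2 -0.30, SE 0.34, adjusted p = 0.652 by edgeR). COL4A2, a chain of the ubiquitous type IV network, had 59202, 73333 and 57545 reads in MSCs against 73892, 68737 and 42392 in EVs. EVs of pig 1 were highest for COL4A2 in that group and EVs of pig 3 lowest, and the log2 difference was -0.05 (SE 0.36). LAMB1, the laminin beta chain of mesenchymal cells, had 24316, 24113 and 18605 reads in MSCs against 28352, 39030 and 22167 in EVs, higher in 3 of 3 pigs with overlapping groups (log2 0.41, SE 0.31, adjusted p = 0.500 by edgeR). LAMB2, another beta chain, was lower in every EV library than in every MSC library, though by only 1.45-fold (log2 -0.53, SE 0.29, adjusted p = 0.376 by edgeR). LAMC3, a laminin gamma chain, had 9, 732 and 167 reads in MSCs against 70, 2003 and 240 in EVs, higher in 3 of 3 pigs with overlapping groups. Its log2 difference of 1.14 (SE 1.46) was 1.48 blocked by pig (SE 0.42, unadjusted p = 0.0053 and adjusted p = 0.108 by edgeR), and ran from -0.92 without EVs of pig 2 to 3.07 without MSCs of pig 2.

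LAMC1 shows how the choice of entry can matter. It encodes the gamma chain of most laminins. The entry that carries the symbol (chromosome 9, 136548464 to 136668804) had 257, 193 and 182 reads in MSCs against 282, 491 and 350 in EVs, with every EV library above every MSC library on the CPM scale and a log2 difference of 0.86 (SE 0.28, unadjusted p = 0.0156 by edgeR). A second entry on the same strand covers 99.6% of it, carries only a locus number and is named LAMC1 in the RefSeq annotation of another assembly (Sscrofa11.1). This second entry held 45388 reads in all, with 5950, 9660 and 6950 in MSCs against 7376, 9909 and 5543 in EVs, and its log2 difference was -0.01 (SE 0.33). The named entry thus held the smaller number of reads, and its difference, like the ratio of LAMB1 to it (log2 difference -0.42, exact permutation p = 0.2), is not taken as that of the gene. FBN1, TNC and COL5A2 also had a smaller entry each, with 403, 4968 and 2523 reads and log2 differences of 1.11, 0.56 and 0.37, none of them past the thresholds.

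The elastic fibre genes had 9 of 11 members tested and a median log2 difference of -0.05. Elastin (ELN) itself had 426, 1112 and 2016 reads in MSCs against 1443, 1483 and 7497 in EVs. It was higher in EVs of 3 of 3 pigs, but EVs of pigs 1 and 2 lay within the MSC range, and the log2 difference of 1.68 (SE 0.87, adjusted p = 0.361 by edgeR) became 0.20 without EVs of pig 3. Blocked by pig it was 1.40, and 0.99 without both libraries of pig 3. FBN1, the main fibrillin of microfibrils, had 19955, 17886 and 22460 reads in MSCs against 15692, 18484 and 26804 in EVs (log2 0.09, SE 0.36). FBN2, the fibrillin of developing tissue, was lower in EVs of 3 of 3 pigs, with 947, 84 and 100 reads in MSCs against 171, 28 and 51 in EVs. MSCs of pig 1 were far above the other libraries, and without them the log2 difference of -2.04 (SE 1.02, adjusted p = 0.350 by edgeR) became -0.19, an omission that leaves EVs of pig 1, the highest of their group, without a partner. Within pigs 1, 2 and 3 the log2 ratio of EVs to MSCs was -2.34, -1.88 and -0.72, and blocked by pig the difference was -1.67 (adjusted p = 0.0737 by edgeR), or -1.28 without both libraries of pig 1. The ratio of FBN2 to FBN1 differed by -1.66 (exact permutation p = 0.3) and was lower in EVs of 3 of 3 pigs.

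The fibulins bind elastin and fibrillin. FBLN1 varied more between pigs than between sources, with 11649, 12246 and 1375 reads in MSCs against 11096, 1921 and 588 in EVs (log2 -0.93, SE 1.09, and -2.80 without EVs of pig 1 to -0.41 without MSCs of pig 2). FBLN5, needed for elastic fibre assembly, was lower in EVs of all 3 pigs with overlapping groups (log2 -0.82, SE 0.41, adjusted p = 0.350 by edgeR). FBLN7 had 8, 148 and 124 reads in MSCs against 31, 311 and 342 in EVs, higher in 3 of 3 pigs (log2 1.28, SE 1.10). FBLN2, EMILIN1 and EMILIN2 were at -0.05, -0.04 and -0.32.

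Only 2 of the 4 proteoglycans were tested. Lumican (LUM), which binds collagen fibrils, had 406, 130 and 746 reads in MSCs against 460, 285 and 1044 in EVs. Versican (VCAN), a large hydrating proteoglycan, had 188, 36 and 207 in MSCs against 212, 138 and 229 in EVs. Each was higher in EVs of 3 of 3 pigs with overlapping groups, at log2 differences of 0.64 (SE 0.70) and 0.54 (SE 0.58). Without EVs of pig 3 the LUM difference turned to -0.23, and without MSCs of pig 3 it was 1.33. VCAN ran from 0.10 without MSCs of pig 2 to 0.93 without MSCs of pig 3. Blocked by pig they were 0.63 and 0.75. Entries of the same name with 0 reads covered 83.0% of the LUM span and 99.3% of the VCAN span.

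The matrix genes also differed between the 3 pigs, in a comparison that was added after the data had been seen. The MSC and EV libraries of a pig trace back to the same cells. Differences between animals thus cannot be told apart from those between cultures or preparations. In the edgeR fit with pig and group, 8 of 52 matrix genes (15.4%, against 1.96% of all entries) had an adjusted p under 0.05 for the pig term. These were COL23A1, LAMC3, FBLN7, POSTN, COL22A1, MATN2, FBN2 and LUM. COL23A1, a transmembrane collagen, was at 134, 6.51 and 80.2 CPM in MSCs of pigs 1, 2 and 3 and at 200, 5.39 and 95.1 in EVs (adjusted p = 0.00333 by edgeR). Pig 2 was thus the lowest in both sources, and MSCs and EVs of that pig were alike. LAMC3 was highest in that pig, at 0.697, 70.1 and 14.2 CPM in MSCs against 5.91, 156 and 24.3 in EVs (adjusted p = 0.00487 by edgeR). COL22A1, a FACIT collagen of tissue junctions, had 1756, 1 and 140 reads in MSCs against 1037, 3 and 2632 in EVs, so that it was all but missing from both libraries of pig 2. With 1 and 3 reads there, no fold is given.

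**Figure D5:**
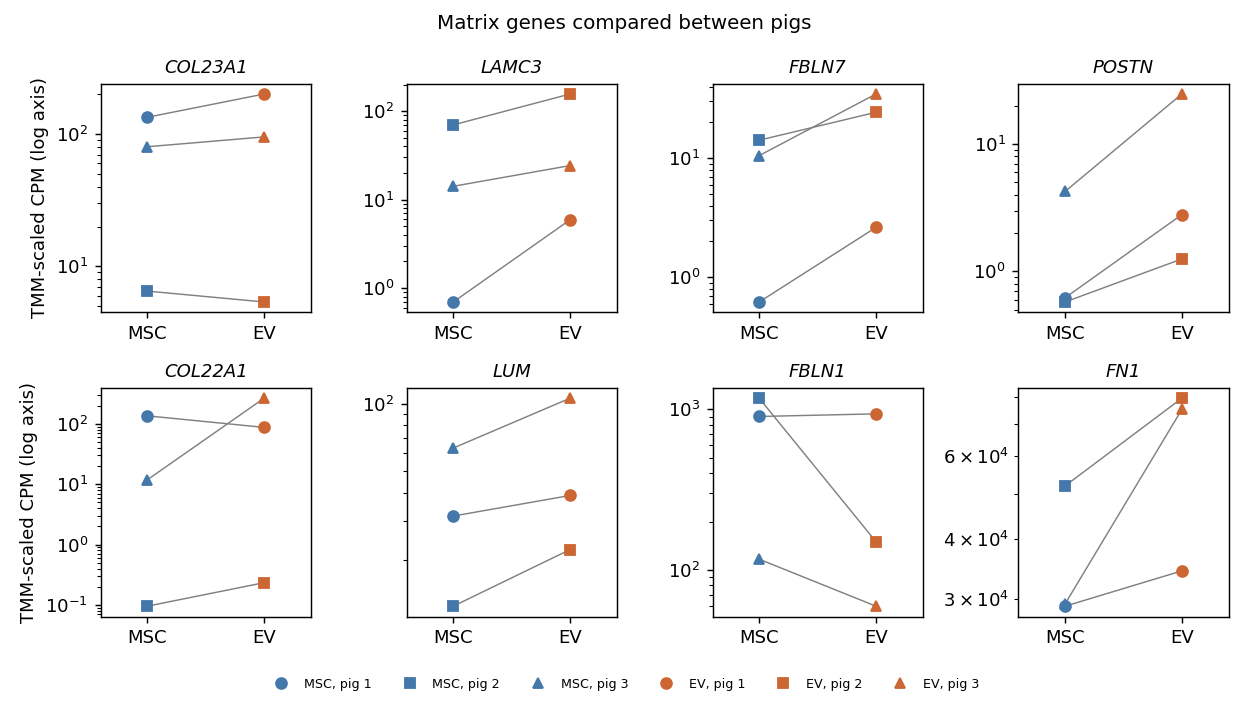
TMM-scaled CPM on log axes for 8 matrix genes in MSCs and EVs of each pig, with lines joining libraries of the same pig. COL23A1 was lowest in both libraries of pig 2 (6.51 and 5.39 CPM), LAMC3 was highest in both (70.1 and 156), and LUM and POSTN were highest in both libraries of pig 3.

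The same pig was highest in MSCs and in EVs for 30 of the 52 genes, and the order of all 3 pigs was the same for 15. Over the 52 genes, deviations from the group means correlated at 0.607, 0.719 and 0.574 between MSCs and EVs of the same pig, and at -0.571 to 0.153 between different pigs. Over all 12392 entries the corresponding values were 0.251 to 0.408 and -0.364 to -0.038. Deviations from a group mean cancel out within the group, so positive same-pig values by themselves tend to make those between different pigs negative. The values between different pigs are therefore not independent of the same-pig ones. These correlations are across genes, which are not independent, and are a description of 6 libraries. The median log2 ratio of EV to MSC over the matrix genes was 0.11 in pig 1, -0.32 in pig 2 and 0.51 in pig 3, while that of all entries was -0.01, 0.03 and -0.05. The median over the matrix genes thus took both signs, although FN1, COL6A2 and COL6A3 were higher in EVs of each pig.

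Genes that act on the same matrix were read from lists. Of 37 genes of collagen biosynthesis and crosslinking, 25 were tested, with 0 higher and 2 lower at a fold over 2 and an unadjusted p under 0.05 (against 5.55% and 3.57% of all entries), and a median log2 difference of -0.29. The 2 were LOXL3 and LOXL4, lysyl oxidase relatives that crosslink collagen and elastin. LOXL3 had 3023, 2359 and 997 reads in MSCs against 895, 645 and 524 in EVs (log2 -1.61, SE 0.41, adjusted p = 0.219 by edgeR), and LOXL4 was at -1.38 (SE 0.54). Of 21 matrix receptors, 16 were tested, with 2 higher, 2 lower (against the same 5.55% and 3.57%) and a median of 0.15. The collagen receptors ITGA2 and DDR2 were the higher ones, at 1.20 (SE 0.48) and 1.29 (SE 0.33). ITGA8, an integrin chain that binds fibronectin, and the heparan sulfate proteoglycan SDC2 were the lower ones, at -1.43 (SE 0.36) and -1.41 (SE 0.34). After adjustment 0 genes of either list passed in edgeR, with or without the pig as a block, whereas DESeq2 called LOXL3 (adjusted p = 0.0179), ITGA8 (0.0179) and SDC2 (0.0155) lower and DDR2 (0.0411) higher. Among the cell type markers, PECAM1 was lower in EVs (log2 -1.71, SE 0.54), ACTA2 was lower (-4.10, SE 0.74, adjusted p = 0.206 by edgeR, 0.0116 blocked by pig) and NOTCH3 was higher (2.21, SE 0.46).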

How the data were processed

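RNA-seq of 3 MSC and 3 EV libraries was used, and the small-RNA libraries were not. The authors deposited 1 mRNA table with raw read counts per gene entry and RPKM values that the authors normalized to library size and gene length. The study's methods name TopHat 2.0.6 and featureCounts, the submitters' notes name HTSeq and build susScr3, and the methods and labels differ on the library kit. The authors' RPKM were used only in the limma fits, and the RPKM levels given here were computed from the counts. A total of 3 shifted rows were left out. Ensembl identifiers were matched to symbols for 11804 of 25322 entries.

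EVs were compared with MSCs on the counts with edgeR 4.0.16 in R 4.3.3 (TMM, filterByExpr, quasi-likelihood test on group, Benjamini-Hochberg over all 12392 entries tested). The p-values on group only measure the spread between the 3 pigs within each group and ignore the pairing. Those blocked by pig, and those of the pig term, rest on the spread of the EV to MSC difference across the 3 pigs. The SE of an edgeR log2 difference was derived as its absolute size divided by the square root of the F statistic of that test. A call was a fold change over 2 with a p, adjusted or not, under 0.05. Alternatives were DESeq2 1.42.0, limma 3.58.1 on log2(RPKM + 1) and log2(RPKM + 0.1), other scalings and filters, removal of the length trend, omission of entries that share spans, summed entries and omission of each library. EVs and MSCs with the same replicate number came from the same animal, as the pig labels state, so the pig was also used as a block, and same-pig deviations correlated at 0.251, 0.384 and 0.408. Chain ratios were tested by exact permutation when both chains had at least 20 reads in every library.

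Values in every library are given for FN1, the 14 matrix genes with the highest mean RPKM, and those past fold 2 unadjusted or past adjustment with the block, and ratios for 5 chain pairs. From the other lists up to 3 genes per direction are named. Matrix genes, lists and roles were chosen with earlier results of these data known. The remaining matrix genes with values in every library were chosen after their values were seen. Intervals are 95% Wilson intervals and cover counting error only, since reads carried no molecular identifiers. The scripts were tested on simulated data with 200 changed entries. At a fold over 2 and an adjusted p under 0.05, edgeR without the block recovered 60% of 4-fold and 99% of 16-fold changes. With the block it recovered 52% and 96.5%, on other simulated data to which differences between pigs had been added. Changes of 4-fold could thus go uncalled. Because the simulated data differed, these values do not compare the fits with each other, and their spread need not match that of these libraries.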

Additional observations from a re-analysis of the deposited data

How the results depend on the processing

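The fold changes past 2 at an unadjusted p under 0.05 (4 matrix genes higher and 1 lower in EVs, with 0 and 0 after adjustment) changed with the fit. With the pig as a replicate block they were 11 higher and 5 lower, with 2 higher after adjustment, and with the block and the length trend removed 9 and 6, with 3 higher and 2 lower after adjustment. The blocked fits without replicate 1, 2 or 3, chosen after seeing the data, gave 7 to 9 higher and 4 to 11 lower, with 2 to 5 higher and up to 4 lower after adjustment. DESeq2 gave 8 higher and 3 lower, with 3 higher after adjustment. The number lower was 2 without a filter on low counts, 3 with the length trend removed, and 2 in limma on log2(RPKM + 1) and log2(RPKM + 0.1). The number higher was 2 with at least 10 CPM in 3 libraries, 2 in limma on log2(RPKM + 1) and 1 with entries that share a span left out, which left 31 matrix genes tested, without FN1, COL6A3, MATN2 and COL5A3. Leaving out 1 library gave 3 to 7 higher and 1 to 10 lower, the highest numbers without MSC replicate 3 (7 higher) and EV replicate 3 (10 lower).

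Over all entries the unadjusted calls were 215 to 1500 higher and 185 to 824 lower across settings, and the adjusted ones 0 to 230 higher and 0 to 175 lower, the most in DESeq2. Matrix genes that differed between pigs were 17 without the filter, against 8 with it (15.4%, against 1.96% of all entries). The share of all entries without the filter is not given here, so the 17 are not read as a result about matrix genes. Counts of matrix genes by setting likewise show only how the calls depend on the fit.

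Several log2 differences changed sign, among them those of COL5A1 and LAMC3. COL12A1 (0.01) was -0.026 with library totals only, -0.00073 without the filter, -0.052 with the block, -0.069 with the length trend removed, -0.14 with both, -0.031 in limma at either pseudocount, and -0.29 to 0.29 when a library was left out. COL4A2 (-0.05) was 0.027 with library totals only and -0.19 to 0.16 when a library was left out. COL5A1 (0.43) was -0.033 with the block, -0.38 with the length trend also removed and -0.82 to 0.82 when a library was left out. Over the same omissions SPARC (-0.10) ran from -1.04 to 0.31, THBS2 (-0.17) from -0.89 to 0.14, COL16A1 (-0.06) from -0.45 to 0.31, LAMC3 (1.14) from -0.92 to 3.07 and the COL5A2 to COL5A1 ratio (0.06) from -0.19 to 0.34. In blocked fits lacking replicate 2, SPARC was 0.18, COL4A2 0.16, COL16A1 0.28 and NID1 0.10, and in those lacking replicate 3, COL12A1 was -0.28, COL4A2 0.022 and COL5A1 -0.64. The cause of these changes was not tested. Genes with few reads, such as MATN2 and COL5A3, were not tested at 10 CPM. Precision is limited by 3 libraries per group.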
